A study of Homo sapiens with 6 samples.

Results

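The cytosolic ribosomal protein genes were chosen by name: every protein-coding gene of the GENCODE GRCh38 annotation called RPL, RPLP, RPS or RPSA followed by its number and, where present, a paralog letter, without the RPS6K kinases and without pseudogenes. There were 85 such genes among the 60671 gene rows of the count files, 53 coding for proteins of the large (60S) subunit and 32 for proteins of the small (40S) subunit. The cells were a single-cell clone of K562, which is a line from a human chronic myeloid leukemia, and the clone carries a doxycycline-inducible fusion of the DNA methyltransferase M.CviPI with Lamin B1, behind a Flag tag and a nuclear localization signal. The DMSO group was 3 separate cultures of this clone in 0.1% DMSO for 72 h, and the EZH2i group was 3 cultures in 1 µM GSK343, an inhibitor of the histone methyltransferase EZH2, for 72 h. All 6 cultures also received 1 µg/mL doxycycline for the final 24 h, so the fusion protein was induced in both groups, and no culture without doxycycline was compared. RNA was sequenced from the 3′ end of polyadenylated transcripts, so a gene's count does not grow with its transcript length.

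Each ribosome is built from one copy of nearly every ribosomal protein together with ribosomal RNA, and the genes for these proteins sit at separate places in the genome and are transcribed by RNA polymerase II. Their messenger RNAs are short, long-lived and among the most abundant of growing cells, and most begin with a run of pyrimidines (a TOP start) through which mTOR signalling controls their translation. Many of these genes carry snoRNAs in their introns, and copies of their messenger RNAs have been written back into the genome many times as processed pseudogenes. In the erythroid lineage, to which K562 cells are related, loss of 1 copy of some of these genes causes Diamond-Blackfan anemia.

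Values of a group are listed in the order of its replicates 1, 2 and 3. Reads counted on genes numbered 6327544, 8711246 and 8987768 for DMSO and 7273739, 7913358 and 6926167 for EZH2i. Levels are given as CPM, reads scaled by TMM to libraries of 1e6. The K562 markers were present: *TFRC*, *TAL1*, *GATA1* and *KLF1* had reads in every library, *TFRC* was the most abundant, and *HBE1* alone of 9 was under 1 CPM on average. Of 11 markers of other cell types, *MS4A1* had no read in any library and 6 were under 1 CPM, while *CD3D* and *EPCAM* were detected at 58.3 to 99.0 and 61.2 to 83.5 CPM. The summed level of these 11 was 157 to 166 CPM in DMSO and 179 to 196 CPM in EZH2i, and *COL1A1*, *CD3D* and *LYZ* were called higher in EZH2i (edgeR adjusted p 0.0042, 0.031 and 0.043). *EPCAM* was lower in all EZH2i libraries than in any DMSO library and was not called (log2 fold change -0.28, edgeR adjusted p = 0.156). What part these markers have in the results for the members was not tested.

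The share of gene reads that fell on the members was 10.86%, 11.75% and 11.02% in DMSO (11.2% ± 0.474, SD, n = 3) and 10.61%, 10.87% and 10.6% in EZH2i (10.7% ± 0.153, SD, n = 3). DMSO replicate 2 was the highest library and the groups overlapped, with DMSO replicate 1 below EZH2i replicate 2. As a share of all listed reads, those counted on no gene included, the groups did not overlap (7.38% to 7.87% in DMSO and 6.74% to 7.28% in EZH2i). The lowest, 6.74%, was EZH2i replicate 3, where 63.6% of listed reads were on genes, beside 66.98% to 67.93% in the other libraries. EZH2i replicates 1 and 2 were at 7.15% and 7.28%. The 40S genes held 5.50% ± 0.227 of gene reads in DMSO and 5.24% ± 0.0822 in EZH2i, and the 60S genes 5.70% ± 0.261 and 5.46% ± 0.0777 (SD, n = 3 each).

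Among the 50 most abundant genes of these libraries, 27 were members. The members' own levels were far apart: 38 were at or over 1000 CPM, 31 from 100 to under 1000, 9 from 10 to under 100 and 7 under 10, with a median of 809 CPM against 24.2 CPM over all tested genes. *RPS27A*, which encodes ubiquitin fused to a 40S protein, was the most abundant, at 5022, 6563 and 6704 CPM in DMSO and at 4737, 4876 and 4804 CPM in EZH2i, all EZH2i libraries being lower than all DMSO libraries. *RPL27A* stood at 4671, 4977 and 5314 CPM in DMSO and 4937, 5219 and 4846 CPM in EZH2i, with the groups overlapping. *RPS29*, *RPL37A* and *RPS24* followed, with means over the 6 libraries of 4276, 4034 and 3825 CPM. These 5 genes held 20.6% of all reads on members.

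At the other end stood genes whose proteins are needed in the same number as those of the abundant members. *RPL21* had 3.58 to 5.28 CPM and *RPL17* 1.15 to 3.03 CPM. The filter on low counts left out 4 members. Among them, *RPS26* had 8, 10 and 8 reads in DMSO and 7, 11 and 10 in EZH2i. *RPL3L*, a muscle paralog of *RPL3*, had 0 to 4 reads a library, and *RPL10L*, a testis paralog of *RPL10*, had 0 reads in all 6. The other 81 members were tested.

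Reads with more than 1 alignment were put on no gene in these files, and they made up 21.4% to 22.3% of the listed reads of a library. The 3′ ends of the members were therefore cut into windows of 50 bases, the length of a read, and each window was searched for exact copies on either strand of 25 chromosomes outside the gene. Over the last 300 bases of the annotated transcripts, a median of 84.1% of windows had no copy elsewhere. The annotation gives 21 members over 1000 bases after the coding sequence, up to 7242, so the 300 bases up to the coding end were searched as well, a choice made after the data were seen, and there the median was 46.8%. At the coding end, the median was 0% for the 7 members under 10 CPM and for the 9 from 10 to under 100 CPM, 33.9% for the 31 from 100 to under 1000 CPM and 70.3% for the 38 above. At the transcript end the medians of these classes were 70.9%, 5.18%, 60.6% and 98.2%, so the 7 members at the lowest levels did not have the lowest median there. Across the 85 members, which share libraries and depth and are not independent, Spearman's rho of this percentage with the mean CPM was 0.423 at the coding end and 0.379 at the transcript end.

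**Figure D1:**
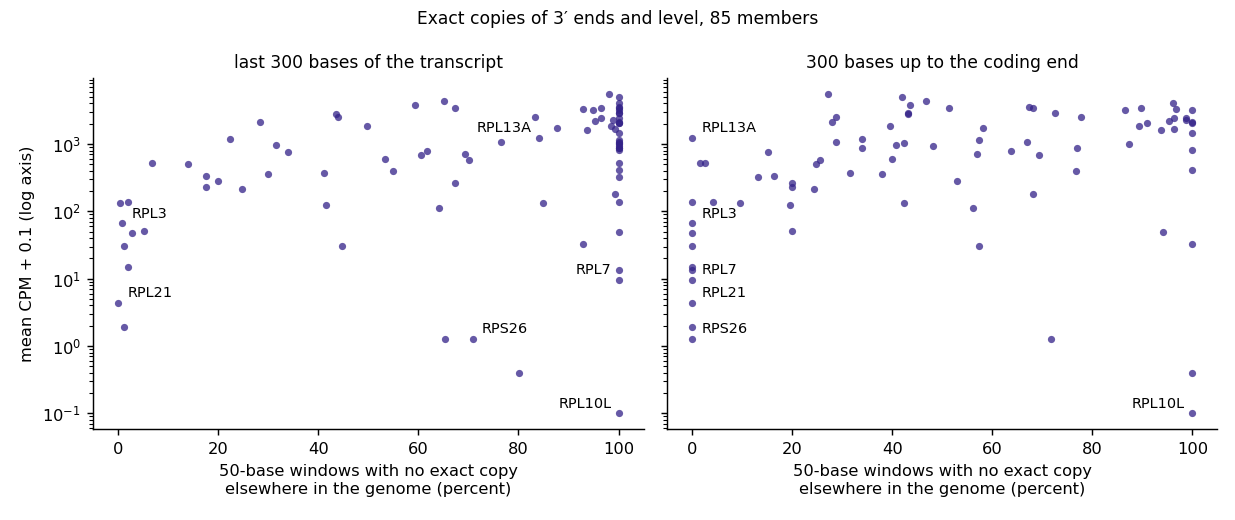
Mean CPM over the 6 libraries (log axis, 0.1 added) of the 85 members against the percent of 50-base windows with no exact copy elsewhere in the genome, for the last 300 bases of the transcript and the 300 bases up to the coding end; each point is a gene. Most members at the lowest levels lie at the left of the right panel, where *RPL21*, *RPS26* and *RPL3* have 0% of windows without a copy, and *RPL13A* lies there too at 1231 CPM.

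*RPL21* had no window without a copy at either end, with 133 annotated pseudogenes named after it, the most of any member. *RPS26*, *RPL17*, *RPL7*, *RPL36A*, *RPS3A*, *RPS10* and *RPL3* also had 0% at the coding end, and *RPL13A* had 0% there at 1231 CPM. At the transcript end, *RPL7* and *RPL36A* had 100%, *RPL13A* 84.1% and *RPS26* 70.9%, so reads ending there could be placed, while *RPL17*, *RPS3A*, *RPS10* and *RPL3* had 0.797% to 2.79%. *RPL17*, *RPS10* and *RPL36A* had 100%, 86% and 93% of the coding end under same-strand exons of other listed genes, and the 3 read-through genes over them, *RPL17-C18orf32*, *RPS10-NUDT3* and *RPL36A-HNRNPH2*, were listed at 0 in all 6 libraries. The levels of these members count only reads placed on them alone and are uncertain as levels of the messenger RNA. Pseudogene rows held 0.0756% to 0.0904% of gene reads a library.

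The starts of the genes were read from RefSeq's promoter table (GRCh38.p14), which matched 68 of the 85 members with 84 entries. A run of C followed by at least 4 C or T, starting within 5 bases of the annotated start on the transcribed strand, was found in 59 of the 84 entries (70.2%), against 21.1% of all 35116 promoters of the table and 22.7% of those of tested genes. By gene, 55 of 68 members had it in an entry, with a median run of 10 bases. Of the mitochondrial ribosomal protein genes 20% of entries had it, and of the elongation factors and other TOP genes 72.7% (8 of 11). TOP genes are known by such a start, so the choice of that list partly set its share. The letters TATAAA stood in the 50 bases before the start in 4 member entries (4.76%, *RPLP0*, *RPS28*, *RPL22L1* and *RPL10L*), against 2.63% of all promoters, and on the opposite strand in 2 (2.38% against 1.04%). A match is a description of the letters and marks no site of use.

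Shown here are 60 bases around the start (40 before it and 20 from it on), 5′ to 3′ on the gene's strand, for the 3 members with the lowest and the 3 with the highest log2 fold changes, the most abundant member and 2 pairs of paralogs, with capitals for the part of a pyrimidine run that starts within 5 bases of the annotated start. Pyrimidines before it, and runs farther from the start, are in lower case.
RPS7 (chr2:3575220-3575279, plus strand): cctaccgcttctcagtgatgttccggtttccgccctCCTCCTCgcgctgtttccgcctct
RPS18 (chr6:33272035-33272094, plus strand): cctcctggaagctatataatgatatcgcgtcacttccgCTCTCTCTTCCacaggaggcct
RPL3 (chr22:39319604-39319663, minus strand): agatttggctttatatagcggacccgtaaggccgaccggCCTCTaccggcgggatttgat
RPLP0 (chr12:120201092-120201151, minus strand): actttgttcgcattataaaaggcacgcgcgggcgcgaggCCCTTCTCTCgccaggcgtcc
RPS10 (chr6:34426050-34426109, minus strand): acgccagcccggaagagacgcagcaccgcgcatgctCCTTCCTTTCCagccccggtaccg
RPL17 (chr18:49492446-49492505, minus strand): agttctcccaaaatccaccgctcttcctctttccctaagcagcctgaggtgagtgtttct
RPS27A (chr2:55232648-55232707, plus strand): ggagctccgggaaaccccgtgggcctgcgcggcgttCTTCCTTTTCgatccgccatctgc
RPL22 (chr1:6199576-6199635, minus strand): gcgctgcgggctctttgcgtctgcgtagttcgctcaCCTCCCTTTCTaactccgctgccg
RPL22L1 (chr3:170870176-170870235, minus strand): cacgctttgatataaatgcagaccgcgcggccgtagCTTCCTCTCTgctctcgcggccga
RPS27 (chr1:153990722-153990781, plus strand): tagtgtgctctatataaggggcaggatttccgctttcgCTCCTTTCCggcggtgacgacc
RPS27L (chr15:63157458-63157517, minus strand): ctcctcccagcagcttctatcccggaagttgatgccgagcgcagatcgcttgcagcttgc
Lower and higher members alike carried a run that met the rule, and in *RPL17* and *RPS27L* none started within 5 bases of the annotated start. *RPS27A* has 3 entries in the table, of which the one shown held the run.

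The question of the comparison was whether 72 h of EZH2 inhibition moved the members' messenger RNAs. No member passed the test: 0 of 81 were called at an adjusted p under 0.05 by edgeR's quasi-likelihood test, where 4.26% of all 12364 tested genes were (527, of which 413 were higher and 114 lower in EZH2i). At an unadjusted p under 0.05, 14 members were lower, which is 17.3% of 81 against 8.21% of all tested genes, and 1 was higher, against 10.9% of all genes. DESeq2 called 1 member, *RPS27A*, against 3.02% of its genes. The median log2 fold change of the 81 members was -0.10 (quartiles -0.22 and 0.05), beside -0.0002 for all tested genes (quartiles -0.17 and 0.19). Of the 81, 53 were below 0 (65.4%, against 50.03% of all genes).

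These shifts depended much on DMSO replicate 2. It was the highest of the 6 libraries for 47 of the 81 members (58.0%), a place it held for 17.5% of all tested genes, and the members' median deviation in it was 0.15 on the log2 scale, against 0.003 for all genes. Without it, the members at an unadjusted p under 0.05 and lower were 2 of 82, against 5.44% of all genes, the median log2 fold change was -0.03 and 57.3% of members were below 0. EZH2i replicate 1 was the lowest library for 32 members (39.5%, against 24.3% of all genes) and the highest for 18, and the members spread most in it, with an SD of 0.26 beside 0.095 to 0.23 in the other 5. Without it, 13 of 83 members were lower at an unadjusted p under 0.05, against 7.93% of all genes, and the median was -0.10.

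**Figure D2:**
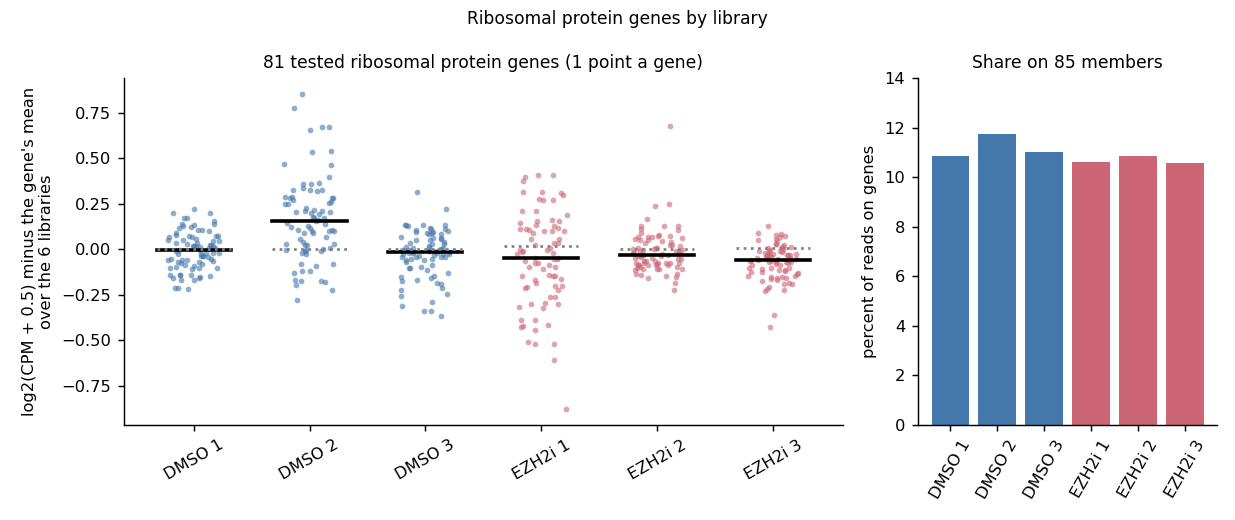
Left, for each library, the log2 CPM (0.5 added) of each of the 81 tested members minus that gene's mean over the 6 libraries; black lines are the medians over members and dotted lines those over all tested genes. Right, the percent of reads on genes that fell on the 85 members. DMSO replicate 2 has the highest median (0.15) and the highest share (11.8%), and the points of EZH2i replicate 1 are the most spread out.

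Lowest in fold change was *RPS7* (ENSG00000171863, chr2:3575260-3580920), a 40S protein gene on the Diamond-Blackfan list. It had 222, 346 and 216 CPM in DMSO (261 ± 73.4, SD, n = 3) and 109, 191 and 192 CPM in EZH2i (164 ± 47.3, SD, n = 3). All EZH2i libraries lay below all DMSO libraries, with DMSO replicate 2 and EZH2i replicate 1 at the extremes. The log2 fold change was -0.67 (SE 0.19, edgeR adjusted p = 0.056), and under the alternatives run the adjusted p ranged from 3.9e-07 (no filter) to 0.32 (DESeq2). It passed 0.05 without EZH2i replicate 2 (0.037) or without EZH2i replicate 3 (0.035), and was 0.31 without DMSO replicate 2. With a library left out, the log2 fold change of *RPS7* ranged from -0.80 to -0.41.

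*RPS18* (ENSG00000231500, chr6:33272075-33276511), another 40S gene, had 1239, 1830 and 1070 CPM in DMSO and 802, 1065 and 1114 CPM in EZH2i. The groups overlapped through DMSO replicate 3, and the log2 fold change was -0.47 (SE 0.16, edgeR adjusted p = 0.114). It was -0.21 without DMSO replicate 2 (edgeR adjusted p = 0.505). *RPL3* (ENSG00000100316, chr22:39312882-39320389), whose protein lines the peptidyl transferase center, had 58.8, 114 and 54.1 CPM in DMSO and 58.9, 59.9 and 49.1 CPM in EZH2i. DMSO replicate 2 alone stood apart, and the log2 fold change of -0.44 (SE 0.21, edgeR adjusted p = 0.253) came to -0.01 without it. *RPS27A* (ENSG00000143947, chr2:55231903-55235853), whose levels are given above, was lower in all EZH2i libraries than in any DMSO library (log2 fold change -0.34, SE 0.12, edgeR adjusted p = 0.115). DESeq2's adjusted p for it was 0.044, edgeR's was 0.039 without DMSO replicate 1, and the alternatives run ranged from 0.0080 to 0.321.

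The other members lower at an unadjusted p under 0.05, named after their values were seen where the rule for named genes does not list them, were *RPL10A*, *RPL14*, *RPS15A*, *RPL4*, *RPL13*, *RPL22L1*, *RPS21*, *RPL11*, *RPS29* and *RPS27*, with log2 fold changes from -0.43 (*RPL10A*) to -0.23 (*RPL11*). Without DMSO replicate 3, *RPS27* passed the test (edgeR adjusted p = 0.047, log2 fold change -0.61), and without DMSO replicate 2 it was at -0.09 (edgeR adjusted p = 0.828). *RPL14* had 952, 1178 and 977 CPM in DMSO and 699, 894 and 863 CPM in EZH2i, and *RPS29* had 4618, 4837 and 4638 CPM in DMSO and 2941, 4370 and 4255 CPM in EZH2i. In both genes the groups did not overlap and EZH2i replicate 1 was the lowest library. Over all 81 members, the EZH2i libraries lay below the DMSO libraries for 16, 19.8% beside 11.1% of all tested genes, and above them for 5, 6.17% beside 13.3%.

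**Figure D3:**
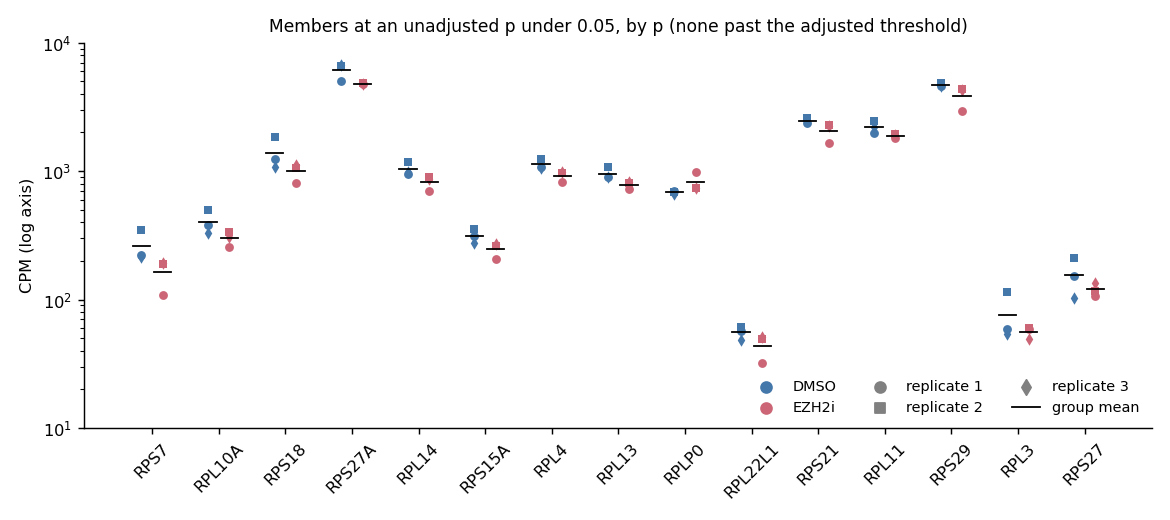
CPM (log axis) of the 15 members at an unadjusted p under 0.05, in order of p, with 1 point a library, the marker shape giving the replicate and black lines the group means (n = 3). *RPLP0* is the member with a higher mean in EZH2i, and DMSO replicate 2 and EZH2i replicate 1 often take the outer places.

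Highest in fold change was *RPL17* (ENSG00000265681, chr18:49488453-49492508), at the lowest level of the tested members: 1.72, 1.42 and 1.25 CPM in DMSO and 2.17, 3.03 and 1.15 CPM in EZH2i. The groups overlapped (log2 fold change 0.56, SE 0.42, edgeR adjusted p = 0.502), and with reads of pseudogene rows added to their parents the value was -0.38. *RPS10* (ENSG00000124614, chr6:34417454-34426069), on the Diamond-Blackfan list, had 41.6, 41.1 and 44.7 CPM in DMSO and 61.9, 44.8 and 47.4 CPM in EZH2i (log2 fold change 0.27, SE 0.13, edgeR adjusted p = 0.268). *RPLP0* (ENSG00000089157, chr12:120196699-120201235), the base of the ribosome's P stalk, had 700, 687 and 663 CPM in DMSO and 981, 743 and 737 CPM in EZH2i. Both genes had EZH2i libraries above all DMSO libraries and their highest value in EZH2i replicate 1, and *RPLP0* had a log2 fold change of 0.26 (SE 0.12, edgeR adjusted p = 0.220). Without that library, both *RPLP0* and *RPS10* were at 0.12 (edgeR adjusted p 0.530 and 0.645). The other stalk genes, *RPLP1* and *RPLP2*, were at -0.03 and -0.09.

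**Figure D4:**
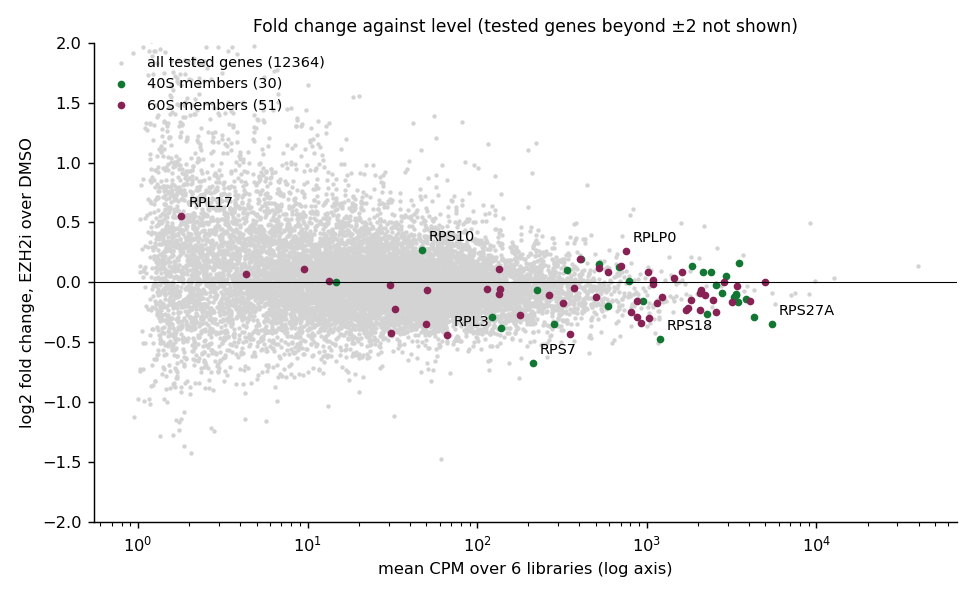
Log2 fold change of EZH2i over DMSO against mean CPM over the 6 libraries (log axis) for all 12364 tested genes (grey) and the 81 tested members by subunit (30 of the 40S, 51 of the 60S). The members lie between -0.67 (*RPS7*) and 0.56 (*RPL17*), most of them at the right, at high levels, and somewhat below 0.

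The 2 subunits had like values. Of 30 tested 40S genes the median log2 fold change was -0.09, with 7 lower and 0 higher at an unadjusted p under 0.05, and of 51 60S genes it was -0.10, with 7 lower and 1 higher. edgeR called 0 genes of either subunit, and DESeq2 called 1 (*RPS27A*) of the 40S and 0 of the 60S. The 28 members that host annotated snoRNA genes, 60 in all, had a median of -0.10, with 3 lower at an unadjusted p under 0.05. The 53 tested members without them had -0.06, with 11 lower and 1 higher, and the difference was not tested. At that p, 8.21% of all tested genes were lower and 10.9% higher. edgeR called 0 in the members with and without snoRNA genes, and DESeq2 called 0 and 1. The members lie on 21 chromosomes, with 12 of them on chromosome 19.

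Of the 9 Diamond-Blackfan genes, 7 were tested, 6 of them below 0, with a median of -0.15. edgeR and DESeq2 each called 0, and 2 (*RPS7* and *RPL11*) were lower at an unadjusted p under 0.05, beside 8.21% of all tested genes. *RPL5* and *RPL11*, whose proteins together with 5S RNA bind MDM2, were at -0.15 and -0.23 (SE 0.10 and 0.11, edgeR adjusted p 0.448 and 0.245). *RPS19*, the gene most often mutated in the disease, had 3181, 3881 and 3357 CPM in DMSO and 3216, 3193 and 3266 CPM in EZH2i, with overlapping groups (-0.11, SE 0.11, edgeR adjusted p = 0.638). *RPL35A* and *RPS24* were at -0.15 and -0.14, and *RPS26* had too few reads to test.

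Several members have a paralog that is named after them, and the reads of each pair were compared within libraries. *RPL39L* took 6.92%, 6.14% and 6.51% of the reads of *RPL39L* and *RPL39* in DMSO and 5.52%, 5.31% and 4.83% in EZH2i. These groups did not overlap, *RPL39L* being at -0.22 (SE 0.12, edgeR adjusted p = 0.342) and *RPL39* at 0.12 (SE 0.10, edgeR adjusted p = 0.539). An exact permutation test of 3 libraries against 3 cannot go below 0.1, so none was run. By level, the EZH2i libraries lay below all DMSO libraries for 11.1% of all tested genes and above them for 13.3%. No such rate was worked out for shares of pairs. *RPL22L1* took 27.97%, 30.4% and 27.9% of its pair's reads in DMSO and 17.9%, 27.3% and 29.4% in EZH2i, with EZH2i replicate 1 apart from the rest, while *RPL22* itself was at -0.05 (SE 0.11).

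*RPS27L* took 72.6%, 61.5% and 79.6% of the reads of *RPS27L* and *RPS27* in DMSO and 80.4%, 80.5% and 74.4% in EZH2i. *RPL7L1* and *RPL36AL* took from 92.8% to 94.0% and from 90.5% to 95.6% of their pairs' reads, and *RPL26L1* from 0.929% to 1.49%. In all of these the groups overlapped. The parents *RPL39*, *RPL22*, *RPS27*, *RPL7* and *RPL36A* had 2.48%, 0%, 4.15%, 0% and 0% of coding-end windows without a copy, and at the transcript end 6.77%, 100%, 1.99%, 100% and 100%. Reads of a parent that ended in copied sequence were left out, so the shares of these pairs describe placed reads and may differ from the messenger RNAs' proportions. *RPL3L* had 0% to 1.15% of its pair, on at most 4 reads, and *RPL10L* had none.

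**Figure D5:**
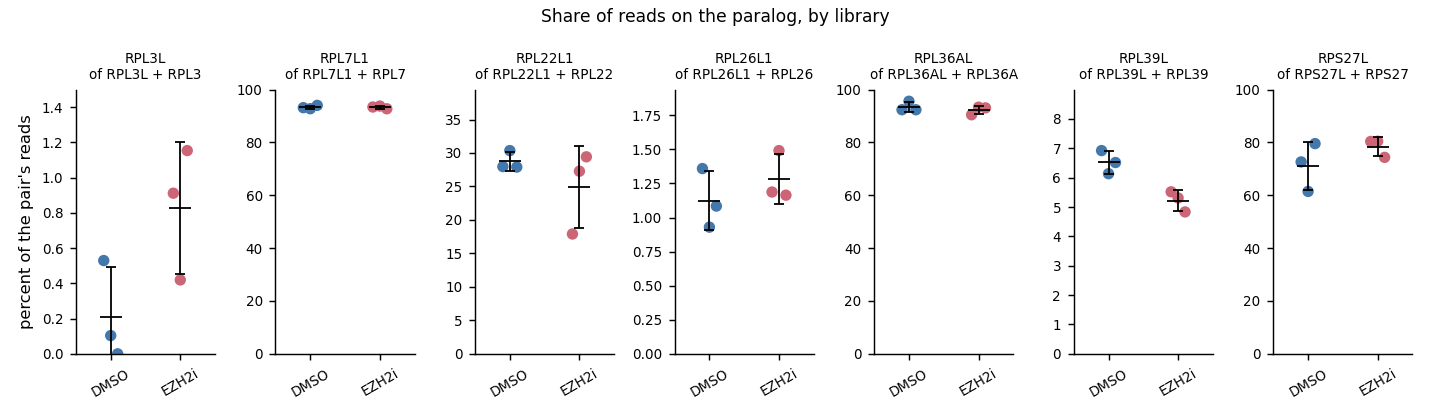
Percent of a pair's reads that fell on the paralog, by library (points), with the group mean and SD (n = 3), for 7 pairs; each axis starts at 0 and has its own scale. The groups are apart for *RPL39L*, at 6.14% to 6.92% in DMSO and 4.83% to 5.52% in EZH2i, and overlap in the other 6.

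Proteins of the cytosolic ribosome under other names gave like values: *FAU* had 1993, 2060 and 2083 CPM in DMSO and 1587, 2057 and 2083 CPM in EZH2i, with overlapping groups and EZH2i replicate 1 the lowest library (log2 fold change -0.10, SE 0.11, edgeR adjusted p = 0.690). *RACK1* was at -0.14 (SE 0.10, edgeR adjusted p = 0.484). edgeR called 0 genes of this list, 0 had an unadjusted p under 0.05, and DESeq2 called 0.

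Of 13 tested elongation factors and other TOP genes, edgeR called 1, lower, and the median was -0.08. It was *EEF1B2*, the exchange factor that recharges elongation factor 1A, at 76.3, 115 and 79.4 CPM in DMSO and 64.88, 59.52 and 60.01 CPM in EZH2i (log2 fold change -0.56, SE 0.14, edgeR adjusted p = 0.032). All EZH2i libraries were below all DMSO libraries, and the adjusted p was 0.185 without DMSO replicate 2, 0.074 without EZH2i replicate 2 and 0.069 without EZH2i replicate 3. With a library left out, the log2 fold change of *EEF1B2* ranged from -0.66 to -0.34. Of 35 ribosome biogenesis factors the median was -0.11, with 5 lower and 2 higher at an unadjusted p under 0.05, and of 12 genes of RNA polymerase I and 5S rRNA transcription it was -0.11, with 2 lower. At that p, 8.21% of all tested genes were lower and 10.9% higher. edgeR and DESeq2 each called 0 in both lists.

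The mitochondrial ribosomal protein genes, which build a separate ribosome, had 73 tested genes with -0.10 as the median log2 fold change. Of these, 54 were below 0 (73.97%) and 19 were lower at an unadjusted p under 0.05, beside 8.21% of all tested genes. edgeR called 1, *MRPS22*, a small-subunit gene with 117, 119 and 105 CPM in DMSO and 76.1, 89.9 and 88.5 CPM in EZH2i (-0.43, SE 0.11, edgeR adjusted p = 0.034). Its groups did not overlap, but the adjusted p was between 0.052 and 0.140 with any 1 library left out. DESeq2 called 3, all lower: *MRPS22*, and *MRPL34* and *MRPL13* (DESeq2 adjusted p 0.0265 and 0.0427), which were named after their values were seen. The cytosolic members' median was thus no lower than that of this list, and the difference was not tested.

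These values come from 1 clone, 1 dose and 1 time point, with the fusion protein induced in every culture, so an effect of EZH2 inhibition in other K562 cells or without the fusion was not measured. A p that misses the threshold does not show that a member was unchanged. The counts are relative to all reads of a library and leave out reads with several alignments. How much this changed the level of any member was not tested. Translation, protein and ribosomal RNA were not measured. In bulk samples, fewer cells of a type and less RNA in each cell cannot be told apart.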

How the data were processed

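QuantSeq 3′ libraries, sequenced as single reads of 50 bases, were aligned by the authors to hg38 with STAR 2.6.0c and counted per Ensembl gene with HTSeq 0.11.2, per the submitters' processing notes, and the raw counts of each library were deposited without normalization. The strand setting of the counting was not found in the sources used here, so reads of overlapping genes may be shared or lost. Rows that name no gene were left out: genes held 63.6% to 67.9% of listed reads, and reads with no feature were 7.43% to 12.7%, the highest in EZH2i replicate 3. A table of the authors' own DESeq2 comparison was not used.

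Symbols and positions come from GENCODE version 44 on GRCh38, and 60401 of 60671 identifiers matched. The fit ran on all genes with edgeR 4.0.16 in R 4.3.3 (TMM scaling; filterByExpr, whose smallest count was 10; estimateDisp, glmQLFit, glmQLFTest, two-sided, Benjamini-Hochberg, threshold 0.05), with group alone as a term. The SE is the size of the log2 fold change divided by the square root of F. DESeq2 1.42.0 was an alternative, as were other scalings, filters, a replicate block, pseudogene reads added to parents, and leaving out each library. Replicates of a group differed by more than sampling noise (chi-square per degree of freedom 4.56 to 12.8). The fits were also run on simulated counts that gave every gene the same dispersion. The changes set there were larger than that of any tested member, so the simulation does not show whether shifts of the members' size would be called. P-values measure the spread between 3 cultures of 1 clone.

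The members and the lists (other ribosomal proteins, Diamond-Blackfan, TOP, biogenesis, RNA polymerase I, mitochondrial ribosomal, pseudogenes, snoRNA hosts, markers) were chosen with earlier results of these data known. Named were called members, the 3 highest and 3 lowest fold changes, the 5 most abundant and the untested members, paralog pairs, other-name and Diamond-Blackfan genes, called genes of the lists (at most 6 each) and 3 pseudogene rows in each direction. Some of these genes are not reported here.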

Additional observations from a re-analysis of the deposited data

How the results depend on the processing

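The count of called members was 0 with DESeq2's size factors, library size alone, scaling without the members, at least 10 reads in every library, or pseudogene reads added. It was 2 at an adjusted p under 0.1, 1 in DESeq2, 9 without a filter and 0 to 1 with a library left out, and the cause was not tested. With the replicate number as a block it was 3 (*RPS7*, *RPL10A* and *RPS18*), but same-numbered libraries did not deviate together (correlations -0.0572, -0.018 and -0.0207 over all tested genes), so the numbers do not pair the samples. Over all genes the calls were 950 at an adjusted p under 0.1, 928 without a filter, 599 with the block and 209 to 536 with a library left out, beside 527. Members lower at an unadjusted p under 0.05 were 8 of 81 with library size alone (6.03% of all genes), with 2 higher. They were 19 of 81 with DESeq2's size factors (8.84% of all genes) and 23 of 84 without a filter (5.81%), each with 1 higher. The median log2 fold change of the members ranged from -0.13 to -0.03 with a library left out and was -0.09 with the block. Under every alternative run it was below 0, and it was nearest to 0 without DMSO replicate 2.

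As a share of all listed reads, members held 7.57% in DMSO and 7.06% in EZH2i, and the groups then did not overlap. This share also varies with the part of listed reads on genes, which was lowest in EZH2i replicate 3. Windows without a copy had a median of 46.8% at the coding end. Signs turned for genes with values near 0: *RPL27A* (-0.013 in DESeq2, -0.0036 with its size factors, -0.019 without a filter, -0.043 to 0.052 with a library left out), *RPL36A* (-0.0090 in DESeq2, -0.015 without a filter, -0.097 to 0.087), *RPL26L1* (0.011 with library size alone, -0.168 to 0.049), *RPL22* (-0.124 to 0.0053) and *FAU* (-0.167 to 0.020). *RPL17* turned to -0.38 with pseudogene reads added. Few reads limit what can be said of *RPL17*, *RPL21* and the 4 untested members, and whether depth or reads with several alignments limits them more was not tested.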

Other observations

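Rows of ribosomal protein pseudogenes were 1587 in the files, of which 944 had a read and 127 were tested. Their median log2 fold change was -0.15, with 81 below 0. At an unadjusted p under 0.05, 9 were lower and 2 higher, beside 8.21% and 10.9% of all tested genes. edgeR called 1, *RPL34P18*, with 14.5, 24.1 and 14.4 CPM in DMSO and 6.64, 9.58 and 9.88 CPM in EZH2i (-1.03, SE 0.22, edgeR adjusted p = 0.015), and without DMSO replicate 2 its adjusted p was 0.120. The parent, *RPL34*, was at -0.21 (SE 0.11). *RPS23P8* and *RPS3P3* followed among lower rows (-0.79 and -1.14), and *RPL37P6*, *RPS2P35* and *RPS10P7* had the smallest p among higher rows (0.75, 0.40 and 0.81), none of these 5 called. Whether such reads come from the pseudogene or from the parent cannot be told apart in these counts.

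*HBG2*, a fetal globin gene among the K562 markers, was called higher in EZH2i, at 101, 80.9 and 101 CPM in DMSO and 174, 127 and 120 CPM in EZH2i (0.58, SE 0.14, edgeR adjusted p = 0.025), with its highest value in EZH2i replicate 1, as in *RPLP0* and *RPS10*.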
